A study of Mus musculus with 6 samples.

Results

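The genes described here encode the protein complexes of oxidative phosphorylation, taken complex by complex in the livers of wild-type mice and of mice without SIRT7. They were chosen by name alone: every gene with a single symbol in the platform annotation that begins with Ndufa, Ndufb, Ndufc, Ndufs, Ndufv, Uqcr or Atp5, with Cox4 to Cox8, or is Sdha to Sdhd or Cyc1, pseudogenes left out. The rule found 85 of the 12393 genes on the array: 34 subunits of complex I, 4 of complex II, 9 of complex III, 16 of complex IV and 17 of complex V, and 5 complex I assembly factors whose symbols begin with Ndufa. Of these, 81 had a mean log2 value of at least 4 over the 6 arrays and were tested among 8343 genes. Each gene was read from the probe set with the highest mean, and the 85 genes had 157 probe sets with a single symbol.

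Total RNA from whole liver was hybridised to one-colour Affymetrix arrays, with 3 livers carrying the wild-type Sirt7 allele and 3 from SIRT7 knockout mice. Both groups were handled under the same conditions, per the labels, which give no strain, age, sex or diet and do not say how the knockout allele was made. SIRT7 is a nuclear sirtuin, an NAD-dependent deacylase, and the study's title connects it to MYC activity. Whether each sample is a separate animal is not stated in the labels; the p-values therefore rest on the variation between 3 samples a group, part of which may be technical.

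Oxidative phosphorylation takes place in the inner mitochondrial membrane. Complex I oxidises NADH and complex II oxidises succinate, both pass electrons to ubiquinone, complex III hands them on to cytochrome c, and complex IV reduces oxygen. Complexes I, III and IV pump protons, and complex V, the ATP synthase, lets the protons flow back to make ATP. Most subunits are encoded in the nucleus, their genes lie scattered over the chromosomes (19 chromosomes held a member here), and hepatocytes are rich in the complexes they form. SIRT7 has been described in the literature as a regulator of mitochondrial genes through the transcription factor GABP, whose beta subunit is the product of Gabpb1, which is the question this gene group raises in these livers.

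Sirt7 itself stood at 9.85, 9.80 and 9.57 in the 3 wild-type livers and at 2.38, 3.11 and 2.86 without the gene, a difference of -6.96 log2 units (SE 0.23, limma adjusted p = 3.99e-06). Whether its probe set lies in the deleted stretch is not given. Over all tested genes, arrays of the same group correlated at 0.962 to 0.984 and arrays of different groups at 0.949 to 0.979, across genes that are not independent replicates. The 7 of 8 hepatocyte markers with a probe set averaged 12.50 to 12.69 in wild type and 12.42 to 12.71 in the knockout, while all 8 skeletal and cardiac muscle markers were under 4 in every liver.

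No oxidative phosphorylation gene passed the test. Limma called 0 of the 81 members at an adjusted p under 0.05, against 2 of all 8343 genes (0.024%), and 0 reached an unadjusted p under 0.05, against 6.46% of all genes (3.42% lower and 3.04% higher in the knockout) and 1.77% of the 1072 genes with a mean of at least 11. The lowest adjusted p among the members was 0.773, for Cox7a1. Most subunits had a knockout mean under the wild-type mean by a small amount: 50 of 76 (65.8%), against 54.6% of all genes and 59.2% of the bright ones. The median difference, knockout minus wild type on the log2 scale, was -0.09 for the subunits, -0.03 for all genes and -0.05 for the bright ones. Fewer cells of a type and less RNA per cell cannot be told apart in bulk tissue.

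The complexes did not show the same median. Complex I had a median difference of -0.18, with 25 of 34 subunits under 0. Complex III followed at -0.11, with 6 of 9 under 0, and complex V at -0.07, with 12 of 17 under 0. Complex IV lay at -0.001, with 6 of 12 under 0, and complex II at 0.04, with 1 of 4 under 0. The 5 assembly factors had a median of 0.11, with 1 of 5 under 0. These medians are descriptions without a test, and the differences between complexes were not tested.

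Among the 3 knockout livers, replicates 1 and 2 differed from replicate 3. The median deviation of the complex I subunits from their mean over 6 livers was -0.04, 0.18 and 0.13 in wild type and -0.14, -0.27 and 0.17 in the knockout. Knockout replicate 3 thus lay within the range of the wild-type livers and the other knockout livers below all of them. Complex V had medians of -0.03, 0.14 and 0.19 in wild type and -0.08, -0.19 and 0.15 in the knockout, and complex III -0.05, 0.08 and 0.13 against -0.03, -0.23 and 0.08. In complex II the spread was between -0.12 and 0.05 with no separation of the groups, and complex IV was at 0.08, -0.13 and 0.03 in the knockout against 0.01, -0.0004 and 0.06. All genes together gave 0.02, 0.03 and 0.02 in wild type and -0.05, -0.04 and 0.07 in the knockout.

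**Figure D1:**
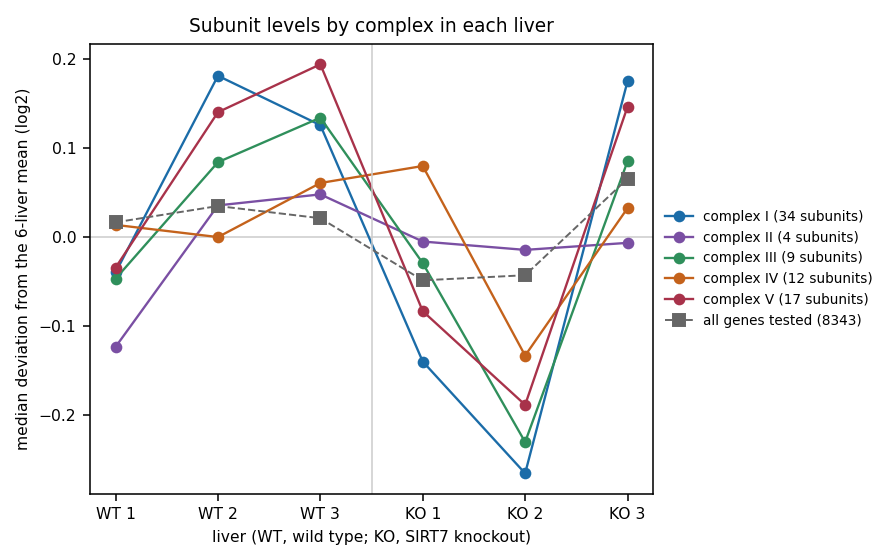
Median deviation of the subunits of each complex from their 6-liver mean (log2, vertical axis) in each of the 3 wild-type (WT) and 3 SIRT7 knockout (KO) livers; grey squares are all 8343 tested genes. Complex I, III and V were lowest in KO 2 (-0.27, -0.23 and -0.19) and in KO 3 lay within the wild-type range.

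In 27 of the 76 subunits (35.5%) knockout replicates 1 and 2 were under every wild-type liver and under knockout replicate 3, which was so for 20.3% of all genes and 29.9% of the bright ones. These were 14 of complex I, 2 of complex III, 4 of complex IV and 7 of complex V, and 0 of complex II. Knockout replicate 3 was the highest knockout liver in 53 of 76 subunits (69.7%, all genes 47.4%, bright genes 51.1%). Wild-type replicate 1 was the lowest wild-type liver in 49 (64.5%, all genes 35.7%, bright genes 44.0%). The mean of the 7 hepatocyte markers was lowest in knockout replicate 2 and highest in knockout replicate 3. It was 12.50, 12.62 and 12.69 in wild type and 12.49, 12.42 and 12.71 in the knockout. Alb, the albumin gene, was at 12.80, 12.90 and 12.94 in wild type and at 12.41, 12.45 and 13.10 in the knockout, with replicates 1 and 2 below and replicate 3 above every wild-type liver. The markers were not alike in this: Cps1, a urea cycle enzyme, ran the reverse way at 12.54, 12.55 and 12.03 in the knockout (12.31, 12.12 and 12.38 in wild type). Cyp2e1, a cytochrome P450, was nearly level at 12.70, 12.81 and 12.74, and Tat, tyrosine aminotransferase, was highest in knockout replicate 1, at 11.45, 10.78 and 11.32. The part of the hepatocyte markers in the subunit values was not tested.

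A different order of livers was seen in a smaller set, at a share between those of all genes and of the bright ones. In 11 subunits (14.5%, all genes 11.6%, bright genes 18.5%) replicate 3 was the lowest liver of both groups: Ndufa12, Ndufb5, Ndufb6, Ndufc1, Ndufs1, Sdhd, Uqcrb, Cox5a, Cox6c, Atp5o and Atp5pb. Atp5o, the subunit that ties the stalk of the ATP synthase to its head, was at 12.70, 12.69 and 12.25 in wild type and at 12.73, 12.67 and 12.21 in the knockout. The groups overlapped fully, and the spread within each group was over 0.4 log2 units while the means differed by -0.01. Subunits of 1 complex therefore did not all follow the same order of livers. The SD over 3 livers was larger in the knockout than in the wild type for 49 of 76 subunits (64.5%), against 59.6% of all genes and 67.3% of the bright ones.

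**Figure D2:**
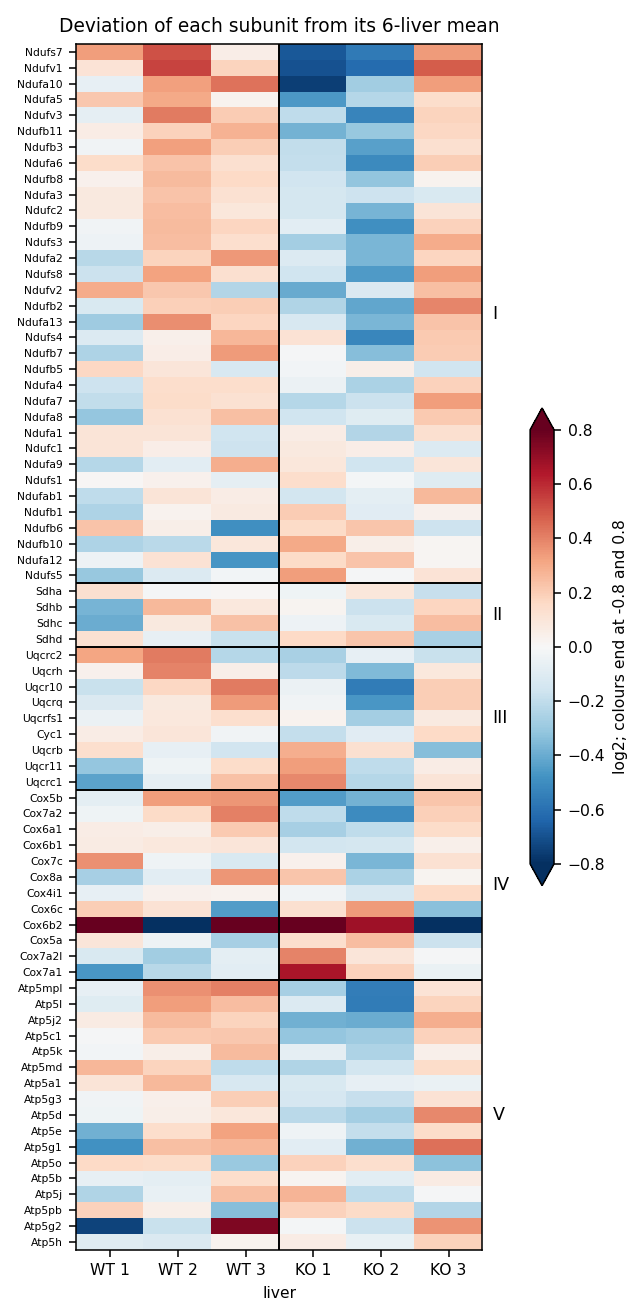
Deviation of each of the 76 tested subunits (rows, grouped by complex I to V and sorted by difference) from its 6-liver mean in each liver (columns; WT, wild type; KO, SIRT7 knockout), red above and blue below, in log2 units. KO 1 and KO 2 are mostly blue and KO 3 mostly red in complex I, where 14 of 34 subunits had KO 1 and KO 2 under all other livers.

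The promoters of these genes were read for motifs of factors known to drive respiratory genes, since SIRT7 has been linked to GABP. The search was also prompted by the 27 subunits (35.5%) with knockout replicates 1 and 2 below all other livers. That share was 29.9% among the bright genes. RefSeq promoter windows of assembly GRCm38.p6 (250 bases before to 50 after an annotated start) were found for 70 of the 85 genes, 65 of them subunits. The letters searched on both strands were GCGC, 1 base of any kind and TGCGC for NRF1, CCGGAAG for GABP and other ETS factors, AANATGGC for YY1, TCAAGGTCA for oestrogen-related receptors, and CACGTG for the E-box that MYC with MAX can bind. No 2 matches of different motifs overlapped in the members' windows (0 pairs among 68 matches). A match is a description of letters, not a bound site.

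The NRF1 letters stood in 14 of 65 subunit promoters (21.5%), against 12.3% of the 6820 tested genes with a window. GABP letters stood in 17 (26.2%, all tested genes 20.9%), YY1 letters in 15 (23.1%, all 10.6%), those of oestrogen-related receptors in 2 (3.08%, all 0.367%) and the E-box in 6 (9.23%, all 12.1%). The 4 subunits below had at least 2 matches to the NRF1 or GABP letters before the start. They are shown in lower case from RefSeq, 5′ to 3′ on the gene's own strand, the minus strand in each case, with the matched letters in capitals.
Sdha (chr13:74350241-74350353): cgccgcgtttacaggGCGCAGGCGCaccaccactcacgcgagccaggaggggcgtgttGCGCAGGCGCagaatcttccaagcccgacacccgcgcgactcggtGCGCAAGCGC
Sdhd (chr9:50603874-50603943): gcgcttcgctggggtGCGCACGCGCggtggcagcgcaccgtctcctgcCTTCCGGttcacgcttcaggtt
Cox6a1 (chr5:115348959-115349135): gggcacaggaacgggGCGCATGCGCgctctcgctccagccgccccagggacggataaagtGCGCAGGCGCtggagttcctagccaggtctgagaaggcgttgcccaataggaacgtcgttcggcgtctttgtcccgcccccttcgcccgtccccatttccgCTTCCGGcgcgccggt
Atp5h (chr11:115419936-115420075): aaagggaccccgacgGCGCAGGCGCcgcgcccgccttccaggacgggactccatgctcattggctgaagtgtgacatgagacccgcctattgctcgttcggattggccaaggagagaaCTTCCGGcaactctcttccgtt

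Capitals in Sdha mark 3 NRF1 matches, those in Cox6a1 mark 2 NRF1 matches and then 1 GABP match, and those in Sdhd and Atp5h mark 1 of each. All 4 genes had small differences: Sdha -0.08, Sdhd 0.08, Cox6a1 -0.21 and Atp5h 0.12. Subunits with the GABP letters had a median difference of -0.10 (17 genes), and those without them -0.09 (47 tested genes). For the NRF1 letters the medians were -0.06 (14 genes) and -0.11 (50 genes), and for the YY1 letters -0.09 (15 genes) and -0.10 (49 genes). The subunits with and without each of these motifs therefore had medians within 0.05 of each other, and no test was run on them.

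The YY1 letters were most frequent in complex I, in 11 of 31 promoters (35.5%), against 4 of 15 in complex V (26.7%) and 0 of 11 in complex IV. In 6 of the complex I genes they lay just after the annotated start of transcription, each as AAGATGGC (19.4% of complex I, 2.67% of all tested genes). Complex V had 1 such gene, Atp5j2 (6.67%). This feature was noticed after the matches were seen. These letters contain ATG, and their overlap with the start of translation was not tested. The stretches below hold 30 bases each of the 6 complex I genes, with AAGATGGC in capitals. They come from the plus strand for Ndufs7 and Ndufa3 and the minus strand for the others.
Ndufs7 (chr10:80249462-80249491): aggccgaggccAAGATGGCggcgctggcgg
Ndufa3 (chr7:3617384-3617413): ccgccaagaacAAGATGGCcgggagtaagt
Ndufb8 (chr19:44555393-44555422): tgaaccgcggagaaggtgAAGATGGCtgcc
Ndufs4 (chr13:114388045-114388074): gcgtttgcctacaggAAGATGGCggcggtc
Ndufc1 (chr3:51408915-51408944): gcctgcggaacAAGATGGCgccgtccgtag
Ndufa9 (chr6:126849097-126849126): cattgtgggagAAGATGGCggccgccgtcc

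Ndufs7, Ndufa3 and Ndufb8 of this set had differences of -0.60, -0.28 and -0.29, while Ndufs4, Ndufc1 and Ndufa9 had -0.13, 0.01 and 0.02. Over the whole of complex I, genes with any YY1 match had a median difference of -0.13 (11 genes) and genes without one -0.18 (20 genes).

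Complex I receives electrons from NADH at a flavin held by Ndufv1 in its peripheral arm and passes them along iron-sulphur clusters to ubiquinone near Ndufs7. These core subunits had the largest differences of all members. Ndufs7, which carries the last cluster of the chain, was at 12.55, 12.72 and 12.27 in wild type and at 11.54, 11.65 and 12.55 in the knockout. Knockout replicates 1 and 2 were under every wild-type liver and replicate 3 was among them, so the groups overlapped. Its means were 12.51 ± 0.23 and 11.91 ± 0.56 (SD, n = 3 each), a difference of -0.60 (SE 0.29, limma adjusted p = 0.775). The second probe set of Ndufs7 differed by -0.23.

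Ndufv1, the flavin- and NADH-binding subunit, was at 11.63, 12.06 and 11.69 in wild type and at 10.82, 10.91 and 12.01 in the knockout. Again 2 knockout livers lay below all wild-type livers and replicate 3 between them, which gave a difference of -0.55 (SE 0.32, limma adjusted p = 0.796). Both other probe sets of Ndufv1 pointed the same way, at -0.50 and -0.36. The remaining core subunits of the electron path differed less. Ndufv2 had a difference of -0.18, Ndufs3 of -0.23 and Ndufs1, the largest subunit of the peripheral arm, of 0.02 (SE 0.18).

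Ndufs8, which holds a pair of clusters on the way to ubiquinone, depended on the probe set. Its brightest probe set differed by -0.19, and the other 5 with a mean of at least 4 differed by 0.30, -0.13, 0.28, 0.16 and 0.31. The last of these was dim, at a mean of 4.12, close to the filter. Of 6 probe sets, 4 were thus above 0 and 2 below.

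Supernumerary subunits surround this core. Ndufa10, a subunit beside the membrane arm with a kinase-like fold, was at 11.20, 11.59 and 11.70 in wild type and at 10.51, 10.99 and 11.60 in the knockout. The groups overlapped through knockout replicate 3, at a difference of -0.46 (SE 0.29, limma adjusted p = 0.796). Ndufa5 differed by -0.37 (SE 0.21), Ndufv3 by -0.37 (SE 0.24) and Ndufb11 by -0.35 (SE 0.21), each with 3 of 3 knockout livers under the wild-type mean. The second probe set of Ndufa5 was near 0, at -0.01, and the others of Ndufb11 differed by -0.35 and -0.16. Ndufb3 and Ndufa6 both differed by -0.33, and Ndufc2 by -0.28.

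In 2 complex I subunits every knockout liver was under every wild-type liver. Over the whole list this was so for 3 of 76 subunits (Ndufa3, Ndufb8 and Cox6b1) and for the assembly factor Ndufaf7, against 5.48% of all genes. Ndufa3, a small subunit of the membrane arm, was at 12.29, 12.44 and 12.33 in wild type and at 12.07, 12.04 and 12.08 in the knockout. It had the tightest knockout values of complex I (SD 0.02), a difference of -0.28 (SE 0.17, limma adjusted p = 0.796), and its second probe set differed by -0.22. Ndufb8, whose protein is widely used as a marker of assembled complex I, was at 11.859, 12.079 and 11.984 in wild type and at 11.675, 11.513 and 11.856 in the knockout. The gap between its groups was only that between 11.859 in wild-type replicate 1 and 11.856 in knockout replicate 3, and the difference was -0.29 (SE 0.19).

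Ndufs5, a subunit on the intermembrane-space side of complex I, stood in the opposite direction. It was at 10.57, 10.77 and 10.85 in wild type and at 11.21, 10.87 and 10.98 in the knockout, with every knockout liver above every wild-type liver. Members with knockout values above all wild-type values were Ndufs5, Cox7a1 and Cox7a2l, 3 of 76 subunits, against 4.27% of all genes. The difference of Ndufs5 was 0.29 (SE 0.19, limma adjusted p = 0.796). A further probe set shared between Ndufs5 and its pseudogene, left out by the rule, differed by -0.13. Ndufb10 differed by 0.25 and Ndufa12 by 0.26, the latter with other probe sets of mean 4 or more at 0.07 and -0.51.

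Other complex I members lay near 0. Ndufc1, Ndufa9, Ndufab1, the mitochondrial acyl carrier protein, Ndufa1 and Ndufa8 all differed by between -0.04 and 0.02. Ndufa4, which is named for complex I but has since been assigned to complex IV, differed by -0.08 (SE 0.20). Ndufb1 was close to the filter, at 4.29 to 4.74 in the 6 livers, and differed by 0.10.

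The 5 assembly factors caught by the rule help build complex I and are not part of it. Ndufaf7, a mitochondrial methyltransferase, was at 8.17, 8.27 and 8.58 in wild type and at 8.13, 7.93 and 8.10 in the knockout. All 3 knockout livers were lower, by a narrow margin between wild-type replicate 1 and knockout replicate 1, at a difference of -0.29 (SE 0.19, limma adjusted p = 0.797). Ndufaf3 differed by 0.27, Ndufaf5 by 0.14, Ndufaf1 by 0.11 and Ndufaf4 by 0.05.

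**Figure D3:**
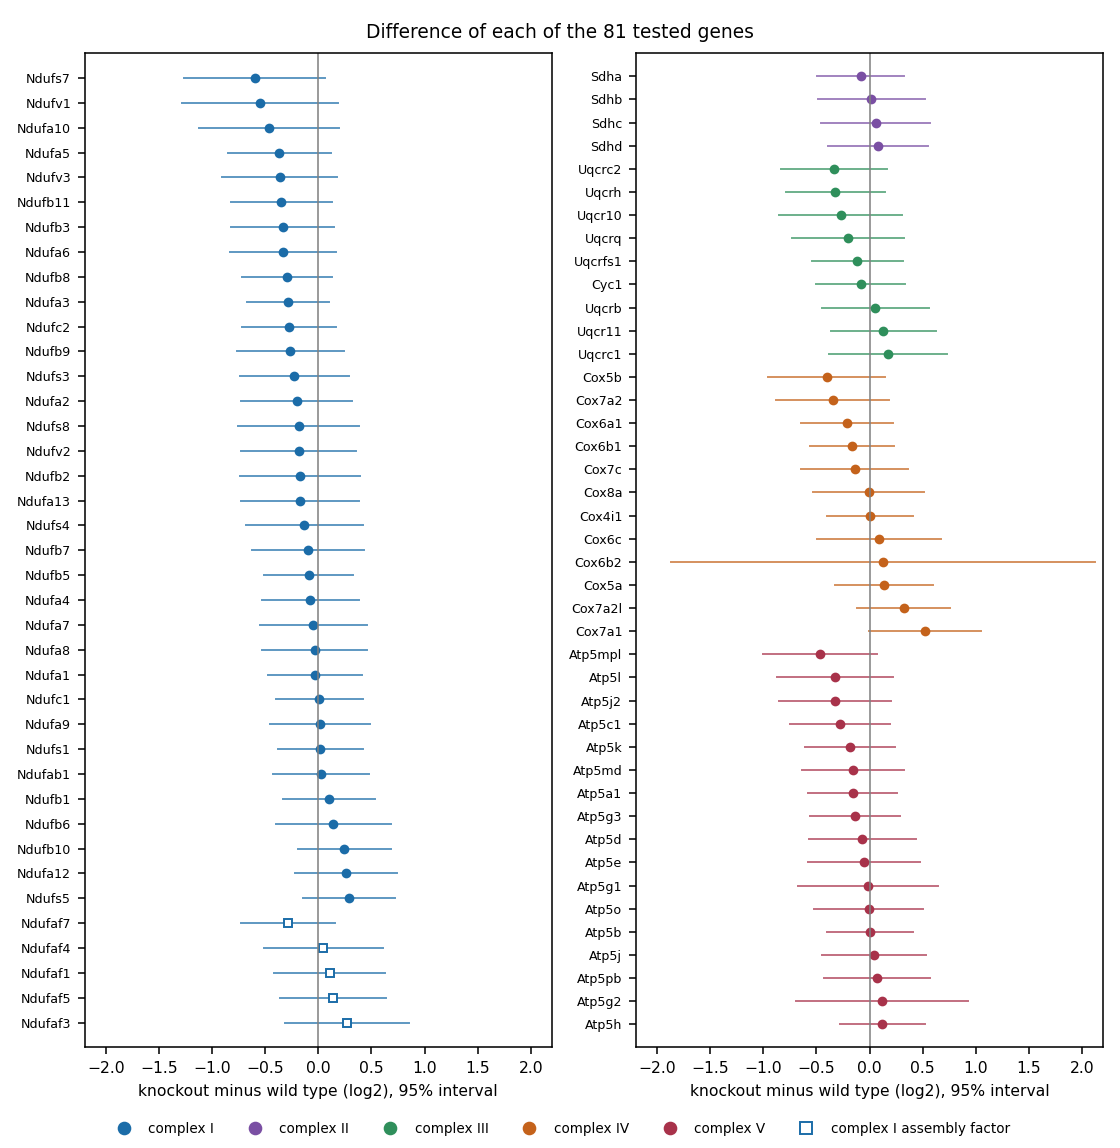
Difference of each of the 81 tested genes (knockout minus wild type, log2, horizontal axis) with its 95% confidence interval from limma, complex I on the left and complexes II to V on the right. Every interval includes 0, and the estimates run from -0.60 (Ndufs7) to 0.52 (Cox7a1).

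Complex II couples the citric acid cycle to the respiratory chain, with Sdha and Sdhb exposed to the matrix and Sdhc and Sdhd as membrane anchors. Sdha, the flavoprotein, was at 12.21, 12.08 and 12.10 in wild type and at 12.05, 12.18 and 11.90 in the knockout. The groups overlapped, with a difference of -0.08 (SE 0.18, limma adjusted p = 0.934). Sdhb, the iron-sulphur subunit, was at 11.28, 11.91 and 11.74 against 11.68, 11.48 and 11.82, a difference of 0.02 (SE 0.22). Both were spread more within a group than between the groups.

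Among the anchors, Sdhc differed by 0.06 (SE 0.23) and Sdhd by 0.08 (SE 0.21). Their dimmer probe sets gave larger differences, 0.52 for Sdhc and 0.51 for Sdhd. The median of complex II was therefore 0.15 when the probe sets of a gene were averaged, in place of 0.04. All 4 intervals of complex II lay within 1.5-fold either way, but they belong to the brightest probe sets and do not cover the dimmer ones. The dimmer probe set of Sdhd (mean 10.65) was at 10.48, 10.44 and 10.27 in wild type and at 11.31, 10.90 and 10.52 in the knockout. Every knockout liver was above every wild-type liver there, while the groups overlapped in the dimmer probe set of Sdhc.

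Complex III takes electrons from ubiquinol through the Rieske protein and cytochrome c1 to cytochrome c. Uqcrfs1, the Rieske protein, was at 11.40, 11.53 and 11.58 in wild type and at 11.48, 11.18 and 11.52 in the knockout, a difference of -0.11 (SE 0.19, limma adjusted p = 0.902). Cyc1, cytochrome c1, differed by -0.08 (SE 0.18). It was at 12.08, 12.116 and 11.995 in wild type and at 11.828, 11.928 and 12.181 in the knockout, so that knockout replicate 3 was the highest of all 6 livers and the other knockout livers the lowest.

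The core proteins of complex III, which face the matrix, had differences of opposite sign. Uqcrc2 was at 12.21, 12.31 and 11.67 in wild type and at 11.64, 11.83 and 11.72 in the knockout (-0.33, SE 0.22, limma adjusted p = 0.796). Wild-type replicate 3 was at the level of the knockout livers there. Without that liver Uqcrc2 was the only member of 81 at an unadjusted p under 0.05, against 11.8% of all genes. Its second probe set differed by -0.04. Uqcrc1 differed by 0.17 (SE 0.24). Of the small subunits, Uqcrh, the acidic hinge protein, differed by -0.32 (SE 0.21), Uqcrq by -0.20, Uqcrb by 0.05 and Uqcr11 by 0.13. Uqcr10 differed by -0.27, but its other probe sets by 0.20 and 0.23.

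Complex IV carries its metal centres on subunits made in the mitochondrion, which are not among the genes named here, and nuclear subunits surround them. Several of these come in pairs, of which liver mainly uses the ubiquitous form. Cox4i1, the ubiquitous form of subunit 4, was at 12.49, 12.59 and 12.59 in wild type and at 12.53, 12.43 and 12.72 in the knockout, with overlapping groups and a difference of 0.01 (SE 0.18, limma adjusted p = 0.996). Cox4i2, the form known from lung, was under the filter, at 2.99 to 3.48 in the 6 livers. Cox6a2 and Cox8b, the forms of heart and skeletal muscle, were also under it, at means of 3.61 and 3.19, as was Cox8c, known from testis, at 2.72. These 4 were the only members that did not reach the filter.

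Cox7a1, the heart and muscle form of subunit 7a, did reach it. It was at 5.30, 5.54 and 5.68 in wild type and at 6.42, 5.95 and 5.71 in the knockout. Each knockout liver was above each wild-type liver, with knockout replicate 3 just above wild-type replicate 3. The difference of 0.52 (SE 0.23) was the largest above 0 among the members and had the lowest p (unadjusted 0.0533, limma adjusted p = 0.773). All 8 muscle markers were under 4 in every liver. Its counterpart Cox7a2, the form most tissues use, differed by -0.35 (SE 0.23), from 12.74, 12.93 and 13.18 to 12.57, 12.27 and 12.97, while its second probe set differed by 0.12.

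Cox7a2l, a relative of these that acts in joining complexes III and IV into supercomplexes, was at 11.36, 11.20 and 11.40 in wild type and at 11.87, 11.57 and 11.46 in the knockout. Its groups did not overlap, and the difference was 0.32 (SE 0.19, limma adjusted p = 0.796). Both other probe sets of Cox7a2l were nearer to 0, at 0.05 and 0.12. Cox7a1 and Cox7a2l thus shared an order of the knockout livers, replicate 1 highest and replicate 3 lowest.

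Cox5a and Cox5b, subunits next to the catalytic core, differed in sign. Cox5b was at 12.23, 12.64 and 12.66 in wild type and at 11.86, 11.93 and 12.53 in the knockout, a difference of -0.40 (SE 0.24, limma adjusted p = 0.796). Here too knockout replicates 1 and 2 were below every wild-type liver and replicate 3 was not. Its 4 other probe sets with a mean of at least 4 differed by -0.34, -0.23, 0.01 and -0.15. Cox5a differed by 0.14 (SE 0.20), with other probe sets at 0.17 and -0.29.

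Cox6b1, which sits on the intermembrane-space side of complex IV, had nearly identical wild-type values of 12.77, 12.79 and 12.80. Its knockout values were 12.56, 12.56 and 12.74, all lower, and the difference was -0.16 (SE 0.17, limma adjusted p = 0.86). Its second probe set differed by -0.31. Cox6b2, known as the testis form, was the least even member: 8.08, 4.80 and 7.77 in wild type and 7.79, 7.62 and 5.61 in the knockout. Wild-type replicate 2 and knockout replicate 3 were low and the other 4 livers high, and the difference of 0.12 (SE 0.88) had an interval from -1.87 to 2.12.

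Of the remaining complex IV subunits, Cox6a1, the liver form of subunit 6a, differed by -0.21 (SE 0.19), Cox7c by -0.14 and Cox8a, the ubiquitous form of subunit 8, by -0.01. Other probe sets of Cox8a differed by 0.16 and -0.65, the latter dim and close to the filter at a mean of 4.17. Cox6c differed by 0.09, and its second probe set by -0.36.

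**Figure D4:**
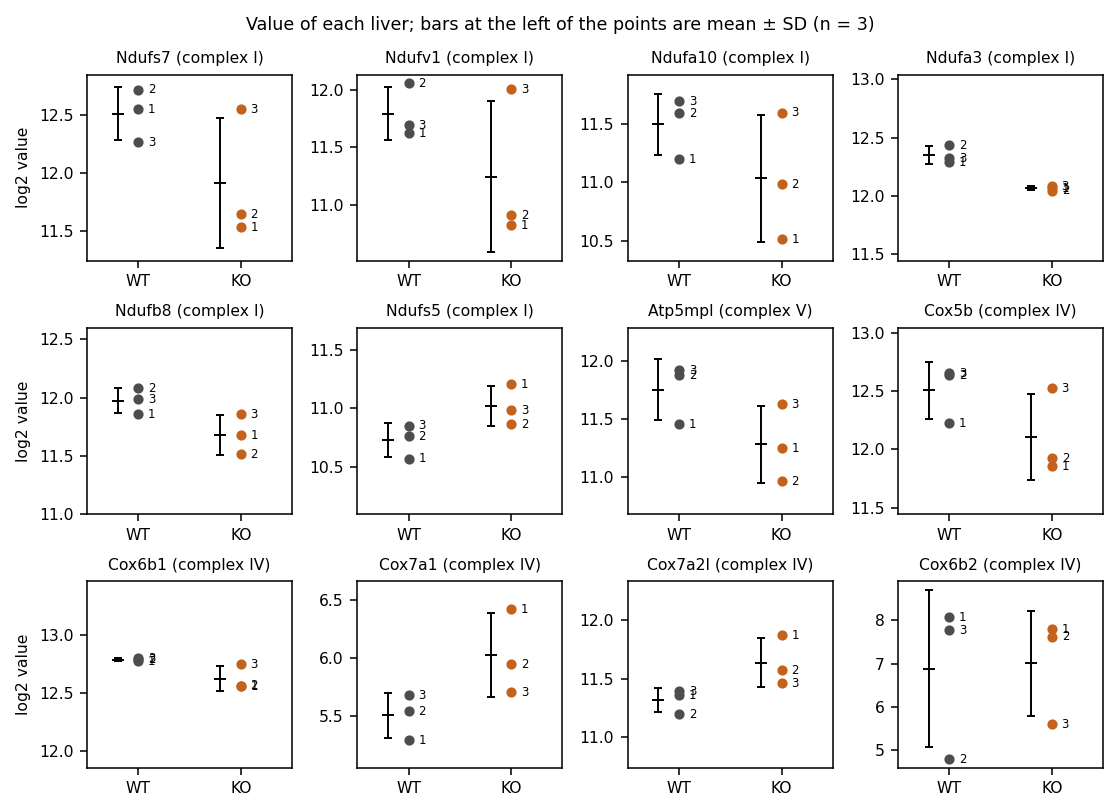
Log2 values of 12 named subunits in each wild-type (WT, grey) and SIRT7 knockout (KO, orange) liver, numbered by replicate, with mean ± SD (n = 3) beside the points. Ndufs7, Ndufv1, Ndufa10 and Cox5b have KO 1 and KO 2 below KO 3; Ndufa3, Ndufb8 and Cox6b1 have all KO livers lower; Ndufs5, Cox7a1 and Cox7a2l have all KO livers higher. The axes differ between panels and do not start at 0.

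Complex V makes ATP in a soluble head, F1, driven by a proton-driven rotor in the membrane. Its catalytic subunit was nearly level between the groups. Atp5b, the catalytic beta subunit, was at 11.73, 11.72 and 11.93 in wild type and at 11.82, 11.71 and 11.86 in the knockout, a difference of 0.002 (SE 0.18, limma adjusted p = 0.999). Atp5a1, the alpha subunit, was at 12.61, 12.77 and 12.38 against 12.39, 12.44 and 12.45, a difference of -0.16 (SE 0.18). Its wild-type livers spread around the tight knockout values (SD 0.04).

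The central stalk turns inside the head. Atp5c1, the gamma subunit, was at 12.45, 12.67 and 12.68 in wild type and at 12.15, 12.18 and 12.65 in the knockout (-0.28, SE 0.21, limma adjusted p = 0.807). Atp5d and Atp5e, the delta and epsilon subunits, differed by -0.07 (SE 0.22) and -0.05 (SE 0.23). Knockout replicate 3 was the highest of the 6 livers for Atp5d, at 12.97, and the other knockout livers the lowest, at 12.37 and 12.31.

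The rotor ring is built of the c subunit, which Atp5g1, Atp5g2 and Atp5g3 all encode. Their differences were -0.02, 0.11 and -0.14, none beyond its SE of 0.29, 0.36 and 0.19. Atp5g2 varied most within a group, at 9.60, 10.16 and 11.08 in wild type, and its dim second probe set differed by -0.12. Of the peripheral stalk, which holds the head still, Atp5pb differed by 0.07, Atp5h by 0.12, Atp5j by 0.04 and Atp5o by -0.01. The second probe sets of Atp5pb and Atp5h pointed the other way, at -0.09 each.

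The largest differences of complex V were those of the small membrane subunits Atp5mpl, Atp5l and Atp5j2. The gamma subunit Atp5c1 followed at -0.28, ahead of the small subunits Atp5k and Atp5md. Several small membrane subunits sit where ATP synthase dimers meet. Atp5mpl, a very small proteolipid, was at 11.46, 11.88 and 11.93 in wild type and at 11.25, 10.97 and 11.63 in the knockout, a difference of -0.47 (SE 0.24, limma adjusted p = 0.775). All 3 knockout livers were under the wild-type mean, but replicate 3 was above wild-type replicate 1. Atp5l, subunit g, and Atp5j2, subunit f, both differed by -0.33, Atp5k, subunit e, by -0.19 and Atp5md by -0.16. These 5 small subunits all lay below 0, with limma adjusted p between 0.775 and 0.879.

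How large a difference these arrays could have missed is given by the intervals, each from the brightest probe set of its gene. The 95% interval of the difference lay within 2-fold either way for 75 of the 81 members, and within 1.5-fold for 29, with a median half-width of 0.50 log2 units. With 3 arrays per group the number of arrays limited this precision. Of the 76 subunits, 32 had a mean of at least 12, where the highest value in the data was 13.97, and whether the probes were near saturation was not tested.

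Among the fits with 1 array left out, the one without knockout replicate 3 moved the counts most. Then 15 members reached an unadjusted p under 0.05, 14 of them lower and Cox7a1 higher, against 16.6% of all genes (11% lower in the knockout). The 14 were 9 of complex I (Ndufs7, Ndufv1, Ndufv3, Ndufs3, Ndufa5, Ndufa6, Ndufa10, Ndufb3 and Ndufb11), Cox5b and Cox7a2, and Atp5mpl, Atp5c1 and Atp5j2. Limma still called 0 of 81 after adjustment (lowest adjusted p 0.265). Without knockout replicate 2, in contrast, the median over the subunits was -0.02 and 43 of 76 were below 0.

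Weighting the arrays by their quality in limma was the only setting that called members. It called 21 of 81, against 21% of all genes: 12 of complex I, 2 of complex III, 3 of complex IV and 4 of complex V, and 20 of them were lower. The weights gave knockout replicate 2 a weight of 6.12 and the other knockout arrays 0.51 and 0.31, so that this fit rested largely on 1 knockout liver, the one with the lowest subunit values.

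Several probe sets measured the same gene, which gave a check within these arrays. In 45 members with at least 2 probe sets of mean 4 or more, 18 (40%) had probe sets that pointed in opposite directions, against 47.4% of 3117 genes on the array. The 18 were Atp5g2, Atp5h, Atp5pb, Cox5a, Cox5b, Cox6c, Cox7a2, Cox8a, Ndufa12, Ndufab1, Ndufb2, Ndufb6, Ndufb7, Ndufb9, Ndufc1, Ndufs4, Ndufs8 and Uqcr10. Ndufb9, a subunit of the membrane arm, differed by -0.26, 0.25 and -0.35 over its 3 probe sets, the last dim at a mean of 4.24. Ndufs4, needed for the NADH-oxidising module, differed by -0.13, 0.06 and -0.47. The order of the livers was alike in the kinds of probe set the array maker distinguishes: the median over 64 ordinary probe sets was -0.10, -0.24 and 0.15 in the 3 knockout livers, and over the 26 that may match more than 1 gene -0.09, -0.18 and 0.12.

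**Figure D5:**
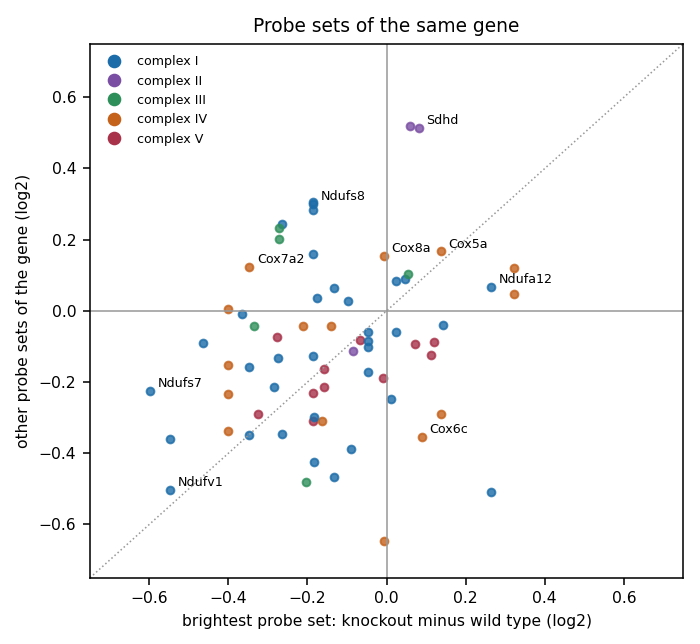
For members with at least 2 probe sets of mean 4 or more, the difference (knockout minus wild type, log2) of the brightest probe set (horizontal) against that of each other probe set (vertical), coloured by complex; the dotted line marks equal values. Points at the upper left and lower right are probe sets of opposite sign, which 18 of 45 members had.

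Genes that build, feed and regulate the chain held no call either. Of 35 assembly factors tested, which include the 5 complex I factors already among the members, 0 were called. Of the 35, 0 reached an unadjusted p under 0.05 and 19 were below 0 (median -0.06). Cox18, which inserts a core subunit of complex IV into the membrane, was at 8.47, 9.27 and 8.54 in wild type and at 7.11, 7.72 and 8.72 in the knockout, a difference of -0.91 (SE 0.40, limma adjusted p = 0.772). Knockout replicates 1 and 2 were below all other livers and replicate 3 was not. Bcs1l, which places the Rieske protein in complex III, differed by -0.56 (SE 0.31) and Ttc19, a factor of the same complex, by -0.50 (SE 0.25).

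Among 20 electron carriers, ubiquinone synthesis genes and carriers of the membrane, 0 were called or at an unadjusted p under 0.05, and 13 were below 0. Cycs, cytochrome c, was at 11.53, 11.39 and 11.30 in wild type and at 12.44, 12.18 and 11.29 in the knockout, a difference of 0.57 (SE 0.29, limma adjusted p = 0.786). Here knockout replicates 1 and 2 were the highest livers and replicate 3 the lowest. In 14 complex I subunits knockout replicates 1 and 2 were instead the lowest livers, while the place of replicate 3 among the others varied. Slc25a4, an ADP/ATP carrier, differed by 0.49 (SE 0.22), Vdac2, a pore of the outer membrane, by -0.47 (SE 0.22) and Coq5, a methyltransferase of ubiquinone synthesis, by -0.49 (SE 0.24).

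The 17 tested regulators of respiratory genes included 0 called genes and 1 at an unadjusted p under 0.05 (5.88%, against 6.46% of all genes). That was Nrf1, nuclear respiratory factor 1, at 5.062, 5.023 and 5.032 in wild type and at 5.278, 5.497 and 5.559 in the knockout (0.41, SE 0.18, limma adjusted p = 0.772). All 3 knockout livers were above all wild-type livers. Gabpa and Gabpb1, the subunits of GABP, differed by 0.02 (SE 0.27) and -0.14 (SE 0.22), and Esrra, an oestrogen-related receptor, by 0.03 (SE 0.23). Tfam, which packages mitochondrial DNA, differed by -0.27 (SE 0.19), Tfb1m, which modifies mitochondrial ribosomal RNA, by -0.39 (SE 0.24) and Ppara, a receptor that drives fatty acid oxidation, by 0.44 (SE 0.22).

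Ppargc1a, the coactivator PGC-1alpha, was at 7.96, 7.98 and 8.65 in wild type and at 9.48, 8.95 and 7.95 in the knockout, a difference of 0.60 (SE 0.38, limma adjusted p = 0.796). As with Cycs, knockout replicates 1 and 2 were above every other liver and replicate 3 was the lowest. Of 8 inhibitors and supercomplex factors, 0 were called or at an unadjusted p under 0.05 and 5 were below 0. Higd1a, a small protein that binds complex IV, differed by -0.52 (SE 0.24), and Chchd3, a scaffold of the cristae, by 0.35 (SE 0.26). Of 16 enzymes of the citric acid cycle and pyruvate entry, 0 were called or at an unadjusted p under 0.05 and 9 were below 0, with Idh3g at -0.51 (SE 0.26), Fh1, fumarase, at -0.37 (SE 0.24) and Pdhb at 0.49 (SE 0.24).

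Sirt7 lies on chromosome 11, where 4 members also lie. The nearest in the order of tested genes was Atp5h, 69 tested genes away, with a difference of 0.12. Atp5g1 was 224 genes away, Uqcrq 520 and Uqcr10 664, so none was a close neighbour of Sirt7.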

How the data were processed

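Liver RNA of 3 wild-type and 3 SIRT7 knockout samples was measured on 6 one-colour arrays. The authors deposited 1 log2 value per probe set, made under R 2.11.1 by GCRMA 2.20.0 per the submitters' processing notes. That the scale is log2 was read from the range of 0.841 to 13.969, and no settings of GCRMA are given in the sources used here. GCRMA removes a background modelled from probe sequence, and how this affected differences near the low end was not tested. Array medians lay between 5.69 and 5.77. Of 22626 probe sets, 20380 had 1 symbol in the platform annotation, 691 several and 1555 none. Each gene was read from its brightest single-symbol probe set, and genes with a mean under 4 were left out. All 85 members were found in the RefSeq table of GRCm38.p6 by gene identifier.

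Groups were compared in R 4.3.3 by limma 3.58.1 (2-sided moderated test from lmFit and eBayes, no covariates; residual df 4, prior df 4.6), with Benjamini-Hochberg adjustment over all tested genes and a threshold of 0.05. The script was checked on simulated data. The members, gene lists and markers were chosen with earlier results of these data known, and motifs and plain probe sets were chosen after seeing the data. Named genes were Sirt7, the 6 members of lowest p per complex, core subunits, tissue isoforms and members with discordant probe sets or under the filter. GABP, Nrf1, Ppargc1a, Tfam and Esrra were also named, with up to 3 genes per pathway list. Further members were named to complete each complex. Cycs, the named lymphocyte markers and the hepatocyte markers Alb, Cps1, Cyp2e1 and Tat were chosen after their values were seen. Alternatives were other filters, other uses of the probe sets, quantile normalization, array weights, an intensity trend, a replicate block and each array left out.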

Additional observations from a re-analysis of the deposited data

How the results depend on the processing

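Limma called 0 of 81 members in every alternative except array weights, which called 21. The count at an unadjusted p under 0.05 was 36 of 81 with array weights (39.2% of all genes). It was 3 with an intensity trend (Atp5mpl, Ndufa3 and Ndufs7, against 6.32% of all genes). It was 1, Cox7a1, without the filter (6.2% of all genes) and with the mean of probe sets (6.25%). With each probe set on its own it was 1, of Cox8a, among 149 (6% of all probe sets tested). With 1 array left out it was 0 to 15, against 3.03% to 16.6% of all genes. Array weights gave medians of -0.387 (complex I), -0.293 (III), -0.125 (IV) and -0.249 (V). The mean of probe sets gave 0.152 for complex II and -0.103 for complex IV. With 1 array left out, the median ran from -0.313 to -0.025 for complex I, -0.084 to 0.09 for II, -0.186 to -0.019 for III, -0.126 to -0.01 for IV and -0.231 to -0.061 for V. The cause of these shifts was not tested. The share of subunits below 0 was 56.6% to 77.6% over the alternatives, and 60.5% with quantile normalization. The sign of 39 of 81 members was the same in every alternative, and the other 42 changed sign in at least 1. Same-numbered livers of the groups did not deviate together (correlations -0.089, -0.091 and -0.194), so the numbers are not taken as pairs. A fit with the replicate block called 0 members, with 0 at an unadjusted p under 0.05, against 4.72% of all genes. Plain probe sets alone, added after seeing the data, gave 0 calls and 66.1% of subunits below 0. Signal over background could not be judged, since the values carry no detection call.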

Other observations

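Probe sets that carry several symbols were left out of the comparison and gave values of their own. A pair of probe sets for Ndufb4 and its copies Ndufb4b and Ndufb4c differed by -0.33 and -0.42 between knockout and wild type. The brighter was at 11.60, 12.17 and 12.07 in wild type and at 11.43, 11.32 and 12.09 in the knockout, with knockout replicates 1 and 2 below every other liver. Ndufa11 with its copy Ndufa11b differed by -0.17, Ndufs6 with Ndufs6b by -0.05, and Ndufab1 with its pseudogene by 0.11. A probe set shared by Ndufa13 and its neighbour Yjefn3 was dim, at 3.883, 3.996 and 4.089 in wild type and at 3.234, 3.212 and 3.698 in the knockout, every knockout liver lower. A dim one shared by Ndufb2 and Adck2 differed by 0.28.

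Lymphocyte markers averaged 5.16, 5.20 and 4.98 in wild type and 4.57, 6.02 and 5.45 in the knockout, so that knockout replicate 2, the liver with the lowest subunit values, had the highest mean. Cd8a was at 4.53, 4.58 and 4.41 in wild type and at 3.92, 6.37 and 5.62 in the knockout. The markers were not alike in this. Cd3d, Cd79a, Cd79b, Nkg7 and Ptprc were also highest in knockout replicate 2, Nkg7 by little (3.83, against 3.75 in wild-type replicate 2). Cd3e was highest in wild-type replicate 2, at 6.01, against 5.72 in knockout replicate 2. Macrophage markers averaged 8.39, 8.43 and 8.40 in wild type and 8.71, 8.29 and 8.41 in the knockout. Their part in the subunit values was not tested.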
